A study of Danio rerio with 6 samples.

Results

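The enzymes of glycolysis, gluconeogenesis, the pyruvate dehydrogenase complex, the citric acid cycle and the pentose phosphate pathway were followed in whole zebrafish larvae with and without a microbiota. Members were taken by gene symbol: any probeset whose platform symbol begins like the name of an enzyme of these pathways (for example pck1, pfk, aldo, idh or mdh, or the symbols cs and fh). The pattern took 83 probesets of 15617. Of these, 3 are control probesets of the array maker for gapdhs, and the other 80 probesets, for 67 genes, were tested among 15502. The letters of the pattern also caught 4 probesets whose products are no enzymes of these pathways: the Notch ligand deltaD (dld), the kinase pkmyt1 and, on 2 probesets, the mitochondrial phosphatase pgam5. They are counted and set apart, which leaves 76 probesets for 64 genes of the pathways.

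Conventionalized larvae of strain C32 had no microbes through day 3 after fertilization, then received the microbiota of zebrafish from a conventional facility and were sampled at day 6. Germ-free larvae of the same strain, also in gnotobiotic rearing, had no microbes up to sampling at day 6. Each group had 3 biological replicate pools of 28 to 80 whole larvae, and RNA of each pool went to its own array. A value therefore averages many larvae and every tissue, and no tissue was separated.

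Glycolysis splits glucose into pyruvate and yields ATP. The hexose steps run from hexokinase to aldolase, and the triose steps from there to pyruvate kinase. Gluconeogenesis runs the path backwards in liver, kidney and gut through pck1, fructose bisphosphatase and glucose 6-phosphatase. Pyruvate enters the mitochondrial citric acid cycle through pyruvate dehydrogenase or leaves as lactate. The pentose phosphate pathway draws on glucose 6-phosphate and supplies NADPH and ribose. Teleosts keep duplicates of many of these genes, and several forms are enriched in one tissue, such as the muscle enolase eno3 and the muscle mutase pgam2.

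The values are the authors' normalized intensities on a linear scale. Log2 changes are conventionalized minus germ-free on log2(intensity + 32), which understates changes at low intensity. Calls were made in limma at an adjusted p (Benjamini-Hochberg) under 0.05. Levels of different probesets were not compared with each other. Median intensities of the arrays lay between 86 and 93.8. Germ-free replicate 3 had the lowest mean correlation with the other arrays of its group (0.977, against 0.982 to 0.99 for the other 5 arrays). For the acta1 controls, the 3' over 5' signal ratio on the log2 scale was 2.77 to 2.97 in conventionalized pools and 2.34 to 2.62 in germ-free pools. This sign of RNA quality moves with the groups beside every result here, and its part in them was not tested. A further 5' control probeset for acta1 was not used in that ratio. It had 8428, 8763 and 9229 in conventionalized pools, against 8664, 8464 and 8425 in germ-free pools, and overlapped. The 3' over 5' ratio for the gapdh controls, 0.271 to 0.479 in conventionalized pools and 0.303 to 0.595 in germ-free pools, overlapped.

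In conventionalized larvae pgd, 6-phosphogluconate dehydrogenase, which makes NADPH in the oxidative arm of the pentose phosphate pathway, was the single member to pass the test. Its intensity was 281.5, 279.8 and 378.3 in the conventionalized pools, against 202.0, 174.3 and 168.0 in the germ-free pools. All conventionalized pools lay above all germ-free pools, and conventionalized replicate 3 was the highest. The means were 313 ± 56.4 and 181 ± 18.05 (SD, n = 3 pools each), a log2 change of 0.68 ± 0.13 (SE, limma adjusted p = 0.027). The call of pgd did not hold in every fit without 1 array. It was not made without conventionalized replicate 1, 2 or 3 (adjusted p = 0.0693, 0.0782 and 0.066) or without germ-free replicate 2 (0.0823), while its log2 change stayed between 0.55 and 0.75. Calls higher over all tested probesets were also fewer in those fits: 115, 98, 147 and 138 in that order, against 199 with all arrays. With all arrays, 1 of 80 members (1.25%) was thus called higher, where 1.28% of all tested probesets were called higher, and 0 members were called lower, where 0.413% of all were. These shares are near each other, so the count of calls is no result about the pathways. At an unadjusted p under 0.05, 17 members were higher (21.2%) and 9 lower (11.2%), against 8.54% and 4.68% of all tested probesets. In a pool of whole larvae, changes in the number of cells of a type and in RNA per cell cannot be told apart.

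**Figure D1:**
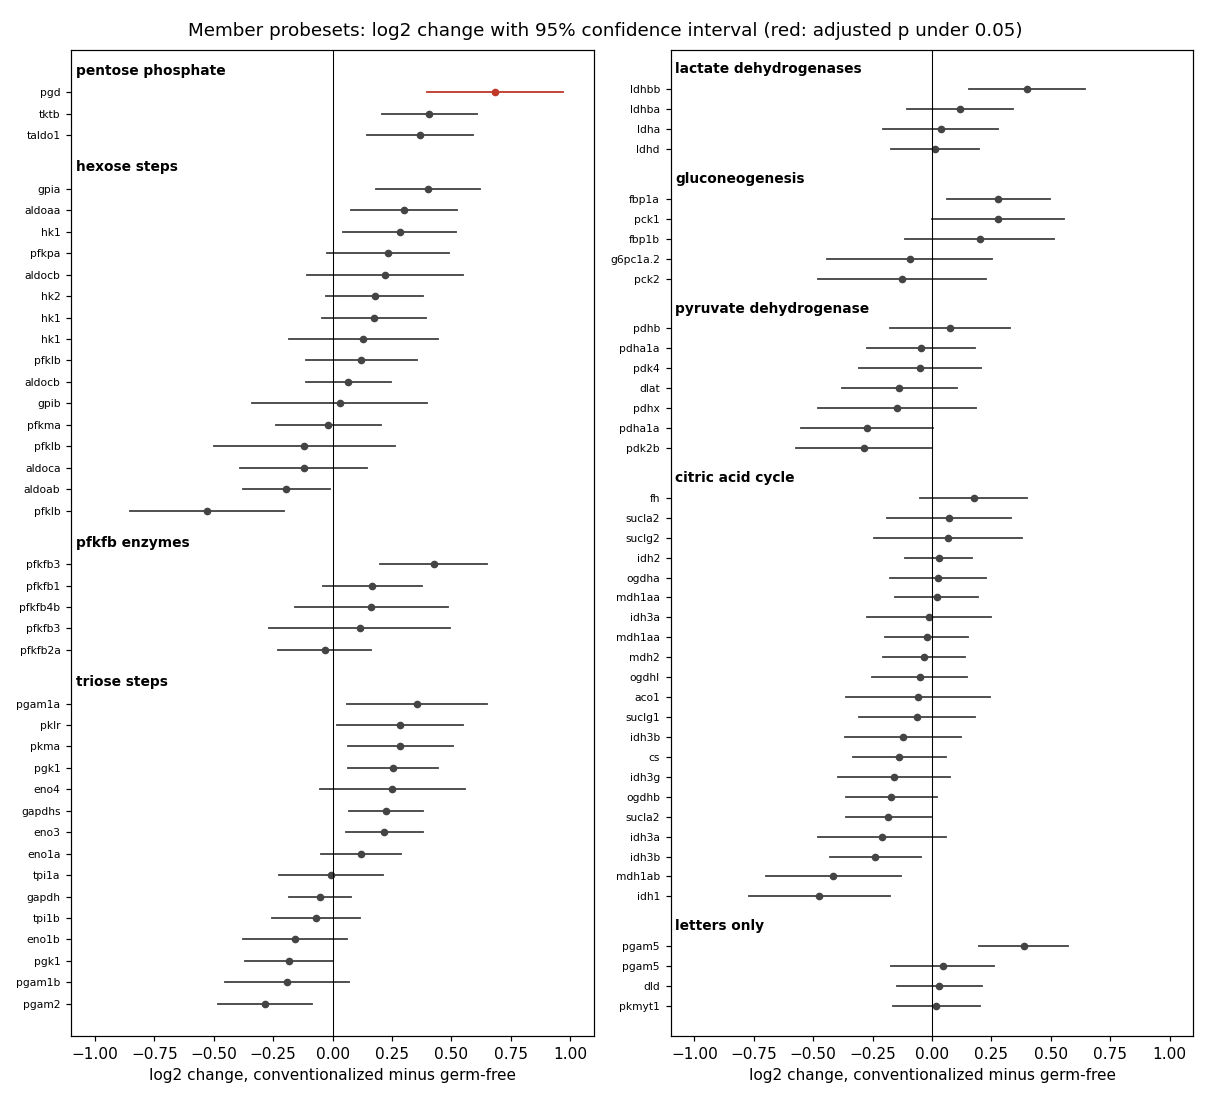
Log2 change of each of the 80 member probesets (points) with its 95% confidence interval (lines), by pathway, as conventionalized minus germ-free on log2(intensity + 32). The red point is pgd, the member called, at 0.68; the citric acid cycle runs from fh at 0.17 down to idh1 at -0.47.

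The placing of the pools was also counted for members that were not called, as a description; no difference between pathways was tested. Of the 80 members, 19 had all conventionalized pools above all germ-free pools, where 12.5% of all tested probesets did, and 10 had all below, where 7.08% did. Together the groups did not overlap for 36.2% of members and 19.6% of all tested probesets. Among probesets with a mean over all arrays of at least 100, the groups did not overlap for 35.9% of 64 members and 24.2% of 7216 probesets. In that brighter set 26.6% of members and 16.3% of probesets lay above, 9.38% and 7.89% lay below, and 1.56% and 2.74% were called. The 80 members had a median log2 change of 0.03, beside 0.02 over all tested probesets. The split of directions moved with scaling, for the members and for all tested probesets. After quantile normalization 17 members lay above and 16 below, where 9.46% and 11.3% of all tested probesets did.

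**Figure D2:**
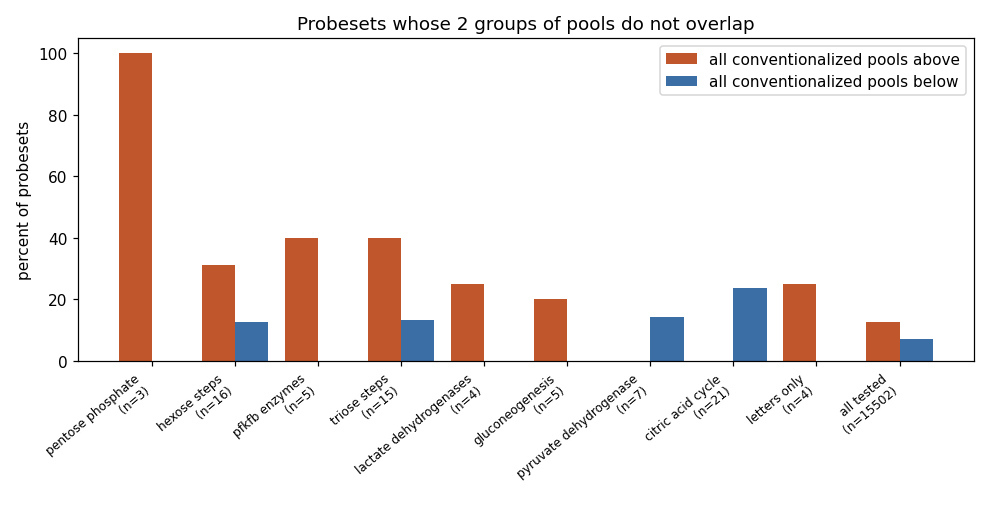
Share of probesets (percent, vertical axis) whose conventionalized pools all lay above (orange) or all below (blue) the germ-free pools, by pathway, with the number of probesets under each name. The pentose phosphate probesets are all above (3 of 3), the citric acid cycle has 0 above and 5 of 21 below, and all tested probesets have 12.5% above and 7.08% below.

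The remaining pentose phosphate members, transketolase tktb and transaldolase taldo1, belong to the non-oxidative arm, which links the pathway back to glycolysis. Transketolase had 1004, 1123 and 1161 in conventionalized pools, against 850.1, 820.2 and 782.6 in germ-free pools (log2 change 0.41 ± 0.09 SE, adjusted p = 0.0551). Transaldolase had 498.0, 505.6 and 522.4 in conventionalized pools, against 403.3, 344.4 and 416.4 in germ-free pools (0.37 ± 0.10, adjusted p = 0.123). In both, every conventionalized pool lay above every germ-free pool, and neither passed the test. Transketolase was called after quantile normalization (adjusted p = 0.0439) and with array weights (0.0269). Its probeset is of the kind whose probes can match more than 1 transcript. The median over the 3 probesets was 0.41. A separate list held 4 other genes of the pathway: the lactonase pgls, the epimerase rpe and the ribose phosphate kinases prps1a and prps1b. On the brightest probeset of each, 0 were called, with log2 changes of 0.05 to 0.22. A dimmer rpe probeset had 60.08, 55.64 and 81.37 in conventionalized pools, against 40.5, 46.59 and 39.25 in germ-free pools. Its groups did not overlap, and it was not called (0.39 ± 0.11 SE, adjusted p = 0.136). The dimmer pgls probesets had log2 changes of 0.001 and 0.07.

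Neutrophils and macrophages use NADPH in the oxidative burst, and their markers were higher in the same pools: 10 of 18 markers were called higher and 0 lower, and 16 had groups that did not overlap. Their summed intensity was 2593 to 2978 in conventionalized pools and 1134 to 1268 in germ-free pools. Hepatocyte markers were called higher for 10 of 26 and lower for 0, and 16 were not called. Of the 26, 15 lay above in all conventionalized pools and 1 below. Their sums were 32034 to 39806 in conventionalized pools and 24939 to 26566 in germ-free pools. Many of those called are acute phase genes such as fgb and cp. Erythrocyte markers were called higher for 3 of 15 and lower for 0, with sums of 8727 to 12773 in conventionalized and 3827 to 6649 in germ-free pools. Other marker lists ran the other way. Photoreceptor and lens markers were called higher for 0 of 23 and lower for 8, with 1 above and 12 below in all conventionalized pools. Their sums were 17778 to 20984 in conventionalized and 24348 to 26256 in germ-free pools. Enterocyte, exocrine pancreas and neuron markers also had more calls lower than higher. Over all tested probesets, 1.28% were called higher and 0.413% lower, and 12.5% lay above and 7.08% below in all conventionalized pools. The part of neutrophils, macrophages, hepatocytes or erythrocytes in the level of pgd was not tested.

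Gluconeogenesis had 5 probesets and 0 calls. The gene pck1 encodes the cytosolic phosphoenolpyruvate carboxykinase, which commits oxaloacetate to glucose synthesis and is induced by fasting hormones. Its intensity was 1977, 1990 and 2021 in conventionalized pools, against 1467, 1453 and 2071 in germ-free pools. The conventionalized pools lay close together, whereas germ-free replicate 3 was above all of them and the other germ-free pools far below. With means of 1996 ± 22.6 and 1664 ± 353 (SD, n = 3 pools each), the log2 change was 0.28 ± 0.12 SE (95% interval 0.00 to 0.55, adjusted p = 0.374). Germ-free replicate 3 decides this value. The array number in its label stands apart from the unbroken run of the other 5 arrays; a separate processing is not stated in the labels and was not tested. Without it the log2 change was 0.44 and pck1 was called higher (adjusted p = 0.0101).

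**Figure D3:**
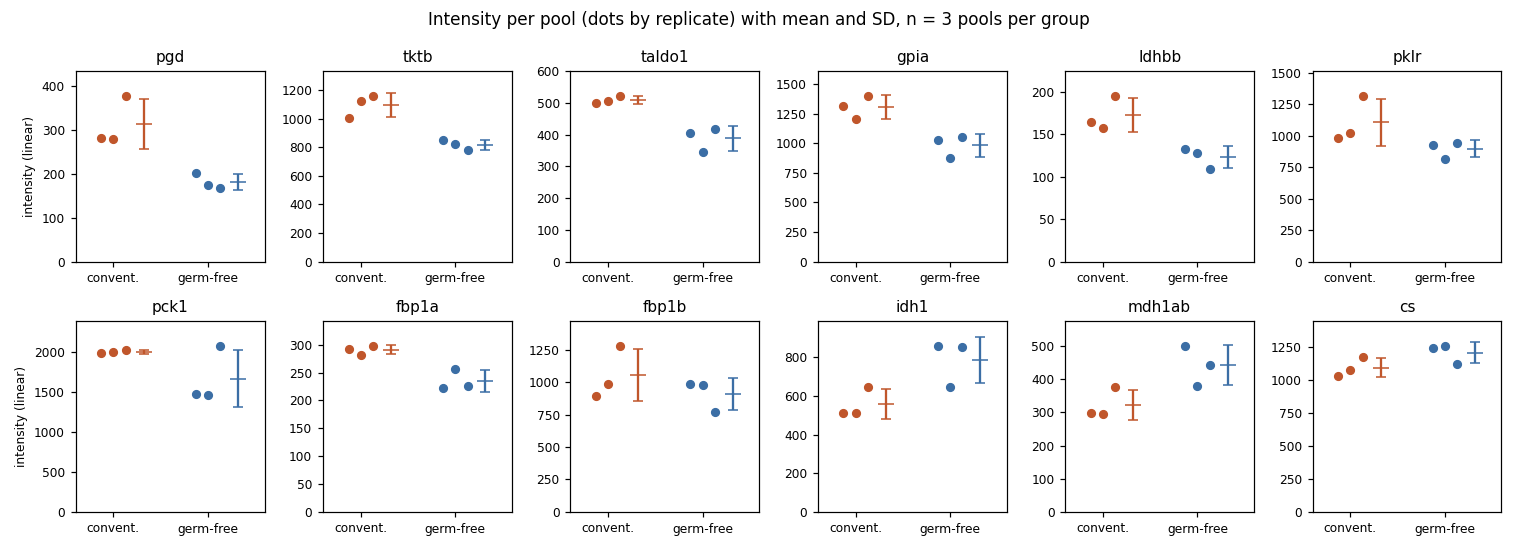
Intensity (linear axis from 0) of 12 members in each pool, conventionalized at left in orange and germ-free at right in blue, with the mean and SD of 3 pools beside the points. For pck1 the germ-free pool at 2071 stands apart from those at 1467 and 1453, while pgd, tktb and taldo1 keep the groups apart and cs does not.

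The mitochondrial form pck2 had 287 ± 58.2 in conventionalized and 316 ± 59.16 in germ-free pools (log2 change -0.13, adjusted p = 0.787). Fructose bisphosphatase removes a phosphate from fructose 1,6-bisphosphate. Its gene fbp1a had 293.1, 281.9 and 297.8 in conventionalized pools, against 222.2, 256.6 and 225.0 in germ-free pools (0.28 ± 0.10 SE, adjusted p = 0.243). The groups of fbp1a did not overlap. The duplicate fbp1b had 896.3, 987.0 and 1279 in conventionalized pools, against 981.6, 979.4 and 766.3 in germ-free pools, and its groups overlapped (0.20 ± 0.14 SE, adjusted p = 0.589). Glucose 6-phosphatase, which releases free glucose, was measured through g6pc1a.2, at 74.2 ± 10.3 in conventionalized and 83.2 ± 27.9 in germ-free pools (adjusted p = 0.846). Its highest pool was germ-free replicate 3 at 114.7, while the other germ-free pools had 73.02 and 61.74. The transporter slc37a4b, of the family that carries glucose 6-phosphate to that enzyme, had 61.92, 47.2 and 73.18 in conventionalized pools, against 116.8, 84.64 and 96.11 in germ-free pools (log2 change -0.50 ± 0.13 SE, adjusted p = 0.101). Among the settings tried, it was called only with array weights. The brighter of 2 probesets of its relative slc37a4a averaged 163 in conventionalized and 170 in germ-free pools (adjusted p = 0.927), and the other had a log2 change of 0.11 (adjusted p = 0.713).

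Among the hexose steps of glycolysis, 0 of 16 probesets were called. Of the 16, 5 lay above in all conventionalized pools and 2 below, where 12.5% and 7.08% of all tested probesets did. The widest positive change was that of gpia, glucose 6-phosphate isomerase, whose substrate is shared with the pentose phosphate pathway. It had 1313, 1203 and 1403 in conventionalized pools, against 1026, 872.6 and 1050 in germ-free pools (log2 change 0.40 ± 0.10 SE, adjusted p = 0.0874). It was called without germ-free replicate 3 (0.45, adjusted p = 0.0439). Its duplicate gpib had 161.1, 114.9 and 138.0 in conventionalized pools, against 143.8, 168.7 and 96.33 in germ-free pools, and overlapped (95% interval of the log2 change -0.34 to 0.40).

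Hexokinases phosphorylate glucose on its entry into cells. One of 3 probesets of hk1 had 406.3, 402.3 and 457.9 in conventionalized pools, against 353.6, 302.2 and 370.6 in germ-free pools (0.28 ± 0.11 SE, adjusted p = 0.289). The other hk1 probesets had overlapping groups and log2 changes of 0.17 and 0.13. For hk2 the means were 102 ± 3.76 in conventionalized and 86.3 ± 7.66 in germ-free pools, without overlap (adjusted p = 0.449). Phosphofructokinase, the main control point of glycolysis, was measured for its muscle, liver and platelet types. The liver-type gene pfklb had 3 probesets that disagreed: 1 had 18.41, 27.46 and 44.82 in conventionalized pools, against 49.59, 67.0 and 53.9 in germ-free pools (log2 change -0.53 ± 0.15 SE, adjusted p = 0.127), and the others had log2 changes of 0.12 and -0.12. Without conventionalized replicate 3 that first probeset was called lower (-0.69, adjusted p = 0.0325). The platelet-type pfkpa lay above in all conventionalized pools (264 ± 33.2 and 220 ± 21.5, adjusted p = 0.43), and the muscle-type pfkma had 231 ± 12.7 in conventionalized and 235 ± 18.2 in germ-free pools.

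Aldolase splits fructose 1,6-bisphosphate, and the duplicates aldoaa and aldoab of its muscle-type gene stood on opposite sides of 0. The first, aldoaa, had 1720, 1812 and 1815 in conventionalized pools, against 1632, 1246 and 1472 in germ-free pools (0.30 ± 0.10 SE, adjusted p = 0.215). The second, aldoab, had 1339, 1424 and 1388 in conventionalized pools, against 1653, 1455 and 1667 in germ-free pools (-0.20 ± 0.08 SE, adjusted p = 0.342). Neither pair of groups overlapped and neither was called. The brain-type aldolases aldoca and aldocb overlapped on all 3 probesets, with log2 changes of -0.12, 0.22 and 0.07. Of 25 muscle markers 0 were called. In 5 all conventionalized pools lay above and in 2 all lay below, where 12.5% and 7.08% of all tested probesets did. Among these markers were desmin desma (log2 change 0.40, adjusted p = 0.0619) and the actin acta1a (-0.62, adjusted p = 0.158), named after their values were seen. The markers' sums, carried by the brightest genes, were 97019 to 100900 in conventionalized and 92562 to 98315 in germ-free pools. Their part in the aldolase values was not tested.

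The pfkfb enzymes make or break fructose 2,6-bisphosphate, the activator of phosphofructokinase. Of their 5 probesets 0 were called. One probeset of pfkfb3, the form best known from proliferating and inflamed cells of mammals, had 129.2, 109.5 and 120.9 in conventionalized pools, against 91.93, 73.97 and 77.74 in germ-free pools (0.42 ± 0.10 SE, adjusted p = 0.0761). The other pfkfb3 probeset overlapped, with 110 ± 15.9 in conventionalized and 102 ± 33.1 in germ-free pools, and its change was -0.09 without germ-free replicate 2. The liver-type pfkfb1 had 239 ± 11.5 and 209 ± 7.70 in that order, without overlap (adjusted p = 0.484). The groups of pfkfb4b overlapped, and so did those of pfkfb2a, whose mean was 5.11 in conventionalized and 5.93 in germ-free pools.

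Of 15 probesets of the triose steps, 6 lay above in all conventionalized pools and 2 below, where 12.5% and 7.08% of all tested probesets did. None was called, and the median log2 change of the 15 was 0.12. After quantile normalization that median was -0.02. Glyceraldehyde 3-phosphate dehydrogenase is often used as a reference gene. The probeset of gapdh had 4525, 4564 and 4997 in conventionalized pools, against 4798, 5000 and 4809 in germ-free pools, and overlapped (95% interval of the log2 change -0.18 to 0.08). Its paralog gapdhs had 3063, 3309 and 3507 in conventionalized pools, against 2831, 2721 and 2883 in germ-free pools (0.22 ± 0.07 SE, adjusted p = 0.181). The 3 control probesets of gapdhs, which were not tested, ran the same way: the 5' probeset had 2540 ± 245 in conventionalized and 2056 ± 49.3 in germ-free pools, the middle one 3007 ± 121 and 2540 ± 44.2, and the 3' one 3253 ± 193 and 2823 ± 247. In each of them all conventionalized pools lay above all germ-free pools.

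Further along the path, pgk1, phosphoglycerate kinase, had 1373, 1449 and 1444 in conventionalized pools, against 1291, 1186 and 1091 in germ-free pools (0.25 ± 0.09 SE, adjusted p = 0.226). A second, dim pgk1 probeset ran the other way, at 21.2 ± 2.52 in conventionalized and 28.5 ± 3.07 in germ-free pools. The probesets of the gene thus differed in sign, and all values of the dim one lay below the offset of 32. Phosphoglycerate mutases differed in sign. The gene pgam1a had 638.7, 624.6 and 739.6 in conventionalized pools, against 568.2, 413.8 and 575.1 in germ-free pools (0.35 ± 0.13 SE, adjusted p = 0.28). Its duplicate pgam1b overlapped (387 ± 34.8 and 448 ± 56.5 in that order). The muscle mutase pgam2 had 473.8, 515.0 and 514.1 in conventionalized pools, against 626.7, 624.5 and 598.4 in germ-free pools (-0.28 ± 0.09 SE, adjusted p = 0.182). Here the pools within each group lay close together and the groups were apart.

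Enolase makes phosphoenolpyruvate. The muscle form eno3 had 1977, 1866 and 1808 in conventionalized pools, against 1671, 1571 and 1601 in germ-free pools (0.22 ± 0.07 SE, adjusted p = 0.226), so the muscle isoforms eno3 and pgam2 stood on opposite sides of 0. The widely expressed eno1a was above in all conventionalized pools by a small margin (2130 ± 35.7 and 1962 ± 143, adjusted p = 0.546), and eno1b and eno4 overlapped. Pyruvate kinase closes glycolysis. Its liver and red cell gene pklr had 983.3, 1020 and 1320 in conventionalized pools, against 929.5, 819.7 and 944.7 in germ-free pools (0.28 ± 0.12 SE, adjusted p = 0.341). The gene pkma had 1526, 1724 and 1909 in conventionalized pools, against 1365, 1316 and 1530 in germ-free pools (0.28 ± 0.10 SE, adjusted p = 0.245). Its groups overlapped narrowly, at 1526 and 1530. Triose phosphate isomerase genes tpi1a and tpi1b overlapped, with log2 changes of -0.01 and -0.07.

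Lactate dehydrogenases interconvert pyruvate and lactate, and 0 of 4 were called. The gene ldhbb had 164.8, 157.7 and 195.5 in conventionalized pools, against 132.8, 127.9 and 108.6 in germ-free pools (0.40 ± 0.11 SE, adjusted p = 0.129), without overlap. Its duplicate ldhba overlapped, at 1525 ± 101 in conventionalized and 1409 ± 163 in germ-free pools. So did ldha, the form that favours lactate production and is a known target of hypoxia signalling, at 193 ± 12.9 and 188 ± 23.6 in that order (95% interval of the log2 change -0.21 to 0.28). The D-lactate enzyme gene ldhd had a mean of 25.5 in conventionalized and 24.9 in germ-free pools.

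The pyruvate dehydrogenase complex, which turns pyruvate into acetyl-CoA, and its inhibiting kinases had 7 probesets. Of these 0 were called, where 1.28% of all tested probesets were called higher and 0.413% lower. Negative log2 changes were seen in 6 (median -0.14), where 6944 of 15502 tested probesets had them (median 0.02). The changes of pdhx and of the brighter pdha1a probeset turned sign in some fits without 1 array. The 2 probesets of the catalytic subunit gene pdha1a had log2 changes of -0.27 and -0.05. The first had 178.2, 133.3 and 189.5 in conventionalized pools, against 221.8, 194.1 and 205.3 in germ-free pools (adjusted p = 0.381), without overlap. The other subunit genes pdhb, pdhx and dlat overlapped. The kinase pdk2b had 743.4, 571.8 and 542.3 in conventionalized pools, against 799.5, 676.6 and 799.4 in germ-free pools (-0.29 ± 0.13 SE, adjusted p = 0.368). Fasting induces pdk4 in mammals. It had 244.1, 243.5 and 251.0 in conventionalized pools, against 302.1, 251.3 and 221.3 in germ-free pools. The wider spread lay on the germ-free side as for pck1. However, germ-free replicate 3 was the lowest pool for pdk4 and the highest for pck1.

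The citric acid cycle and its cytosolic isoforms made up 21 probesets for 17 genes. None was called. In 0 all conventionalized pools lay above and in 5 all lay below, where 12.5% and 7.08% of all tested probesets did. Negative changes were seen in 15, where 6944 of 15502 tested probesets had them (median -0.06, beside 0.02 over all tested probesets). After quantile normalization 0 lay above and 8 below, where 9.46% and 11.3% of all did. The widest differences were those of cytosolic enzymes that share a reaction with the cycle. Isocitrate dehydrogenase idh1, a cytosolic source of NADPH, had 513.0, 510.0 and 646.0 in conventionalized pools, against 859.3, 648.2 and 853.6 in germ-free pools (-0.47 ± 0.13 SE, adjusted p = 0.136). Cytosolic malate dehydrogenase mdh1ab had 297.3, 296.5 and 376.2 in conventionalized pools, against 500.8, 380.3 and 444.4 in germ-free pools (-0.41 ± 0.13 SE, adjusted p = 0.179). In both, every conventionalized pool lay below every germ-free pool, with conventionalized replicate 3 and germ-free replicate 2 closest to each other. Both were called lower after quantile normalization (idh1 0.0256, mdh1ab 0.0483, adjusted p) and with array weights (0.0223 and 0.0312). The duplicate mdh1aa overlapped on both its probesets, with log2 changes of 0.02 and -0.02, and the cytosolic aconitase gene aco1 had 200 ± 44.8 in conventionalized and 207 ± 15.8 in germ-free pools.

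Of the mitochondrial enzymes, the NADP-linked idh2 had 2564 ± 24.8 in conventionalized and 2515 ± 70.2 in germ-free pools (95% interval of the log2 change -0.11 to 0.17). Citrate synthase cs, which opens the cycle, had 1033, 1080 and 1173 in conventionalized pools, against 1247, 1260 and 1119 in germ-free pools, and overlapped (-0.14 ± 0.09 SE, adjusted p = 0.549). One probeset of the succinyl-CoA ligase gene sucla2 had 911.0, 951.4 and 991.1 in conventionalized pools, against 1090, 1063 and 1101 in germ-free pools (-0.18 ± 0.08 SE, adjusted p = 0.36), while its second probeset overlapped with a log2 change of 0.07. The oxoglutarate dehydrogenase gene ogdhb (86.5 ± 1.28 and 101 ± 5.44 in that order) and 1 of 2 idh3b probesets (28.5 ± 3.06 and 39.4 ± 4.28) also lay below in all conventionalized pools. The other probesets, those of idh3a, idh3g, ogdha, ogdhl, suclg1, suclg2, mdh2 and fh and the second of idh3b, overlapped, and their log2 changes ran from -0.21 to 0.17. Of 14 genes for pyruvate entry and other parts of the cycle, among them succinate dehydrogenase subunits and the pyruvate carboxylases pcxa and pcxb, 0 were called, and their log2 changes ran from -0.195 to 0.18.

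The letter matches outside the pathways were not called either. One pgam5 probeset had 18.5, 13.14 and 11.31 in conventionalized pools, against 2.159, 4.572 and 3.475 in germ-free pools (adjusted p = 0.0542), values near the bottom of the scale, and the second pgam5 probeset had 112 ± 6.36 and 107.5 ± 11.2 in that order. The groups of dld and pkmyt1 overlapped. Across the 80 members, the germ-free pool with the lowest value was replicate 2 for 55 (68.8%, against 47.5% of all tested probesets), and the highest conventionalized pool was replicate 3 for 53 (66.2%, against 44.7%). The same arrays had the lowest and the highest median intensity of all 6, 86 and 93.8, and whether this bears on the members' spread was not tested.

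Around the enzymes, lists of related genes were counted on 1 probeset per gene. Over all tested probesets 1.28% were called higher and 0.413% lower, so 0 calls in a list this short is no result about it. Calls numbered 0 of 9 for glycogen metabolism and 0 of 10 for glucose and lactate transport. They numbered 0 of 5 for a list around mannose and glycerol entry (gpd1b, gpd1l, uap1, pmm2 and gk5), without a fructose entry enzyme. A list around amino acid entry into gluconeogenesis had 0 of 12. It also held the succinate dehydrogenase gene sdha, counted in the list of pyruvate entry too, and the asparagine synthetase gene asns. The glutamate dehydrogenases glud1a and glud1b, which feed 2-oxoglutarate into the cycle, both lay above in all conventionalized pools. Their log2 changes were 0.33 ± 0.13 SE (adjusted p = 0.309) and 0.26 ± 0.07 (0.131). The cytosolic aspartate aminotransferase got1 lay below in all of them (712 ± 84.7 and 834 ± 30.7 in that order, adjusted p = 0.382), and so did the mitochondrial got2b (842 ± 40.4 and 921 ± 35.7, adjusted p = 0.566).

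Regulators of glucose metabolism were the list with calls: 6 of 32 rose in conventionalized larvae (18.8%, where 1.28% of all tested probesets were called higher), 0 fell and 26 were not called. The list's median log2 change was 0.19. It was written with the results for ddit4 and the igfbp1 genes known, so its count is no independent evidence. Beside those, cebpb, a transcription factor of liver gluconeogenesis and of the acute phase, had 672.2, 658.0 and 576.9 in conventionalized pools, against 270.3, 240.8 and 412.5 in germ-free pools (log2 change 1.00 ± 0.17 SE, adjusted p = 0.013). Proglucagon gcga, the precursor of the hormone that induces pck1, had 102.2, 113.2 and 115.7 in conventionalized pools, against 60.38, 73.83 and 66.39 in germ-free pools (0.53 ± 0.09 SE, adjusted p = 0.0207). The hypoxia-inducible factor gene hif1al had 702.8, 770.1 and 754.2 in conventionalized pools, against 563.2, 443.9 and 521.5 in germ-free pools (0.52 ± 0.11 SE, adjusted p = 0.0384).

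The mTORC1 inhibitor gene ddit4 had 117.8, 114.0 and 95.16 in conventionalized pools, against 31.1, 27.49 and 42.13 in germ-free pools (1.11 ± 0.11 SE, adjusted p = 0.000571). The insulin and fasting responsive binding protein genes igfbp1a and igfbp1b had log2 changes of 0.88 and 0.92 (adjusted p = 0.00398 and 0.00239). In these 6 genes the groups did not overlap. The rises of cebpb and gcga were not called without conventionalized replicate 1 or 2 or germ-free replicate 1, nor that of gcga without conventionalized replicate 3, and that of hif1al was called among the fits without 1 array only when germ-free replicate 3 was left out. With these arrays left out the adjusted p ranged from 0.0598 to 0.0874 for cebpb, from 0.0601 to 0.121 for gcga and from 0.0528 to 0.222 for hif1al.

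**Figure D4:**
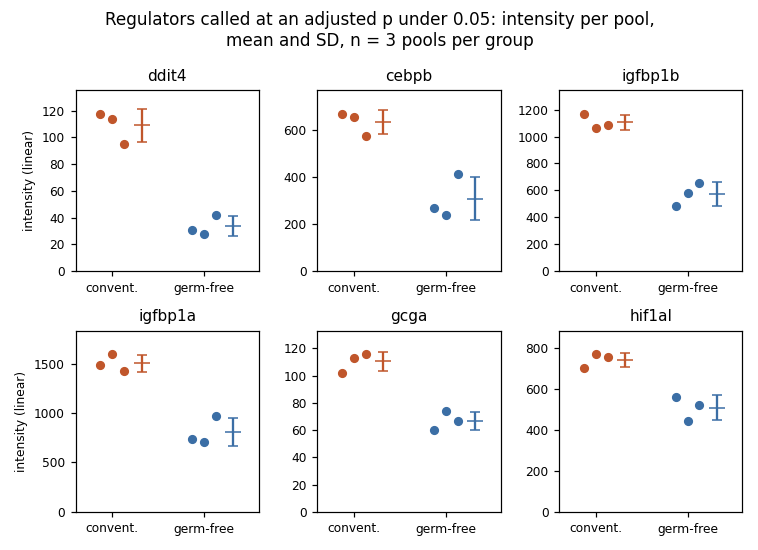
Intensity (linear axis from 0) per pool of the 6 regulators called, conventionalized at left in orange and germ-free at right in blue, with the mean and SD of 3 pools. In each panel all conventionalized pools lie above all germ-free pools; for ddit4 the pools are at 95.16 to 117.8 and at 27.49 to 42.13.

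The remaining regulators given here, named after their values were seen, were not called. The brightest of 3 probesets of the insulin receptor gene insra had 361 ± 23.0 in conventionalized and 279 ± 29.8 in germ-free pools (0.34 ± 0.11 SE, adjusted p = 0.184). The other insra probesets overlapped, with log2 changes of 0.15 and 0.12. Its substrate irs2a, which mediates insulin action in liver, had 358.1, 340.6 and 350.6 in conventionalized pools, against 285.4, 252.1 and 178.5 in germ-free pools (0.52 ± 0.14 SE, adjusted p = 0.13). The duplicates txnipa and txnipb, glucose-responsive inhibitors of glucose uptake, had log2 changes of 0.32 (adjusted p = 0.129) and -0.32 (0.299). The hypoxia-inducible factor hif1ab, whose mammalian counterpart drives glycolytic genes, had 579 ± 46.3 in conventionalized and 583 ± 86.2 in germ-free pools.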

How the data were processed

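Per the series' design text, 12 ug of total RNA per pool was labelled as biotinylated cRNA and 20 ug of it was hybridised to a 1-colour Affymetrix array. In dChip the authors applied invariant set normalization and the PM-MM model, per the same text. The deposited values are these intensities, linear and 1 per probeset. Invariant set normalization removes a shift shared by most genes. The authors' present and absent calls were not used here. Precision is set by having 3 pools in a group.

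The 115 control probesets were left out and no dim probeset was filtered. Intensities were taken as log2(intensity + 32) and fitted with limma 3.58.1 in R 4.3.3 on all 6 arrays, with the group as the only term, moderated variances with an intensity trend, two-sided tests and Benjamini-Hochberg adjustment over 15502 probesets. All adjusted p-values come from such limma fits. The fit was tested on simulated data. Symbols are those of the platform annotation; all 80 members were found by Entrez identifier in a GRCz12tu table, used for names only, and 0 changed.

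The members, lists and tests were chosen with earlier results of these data known. Chosen to be named in full were pck1, called members, and members whose groups did not overlap with a log2 change of at least 0.3 in size. Per pathway, the 4 with the largest change and the 2 with the highest mean were added. Members not chosen are named to account for every member. Some of those chosen, among them pfkfb4b, pdhb, pdhx, dlat, dld and pkmyt1, were given without their intensities. Genes of a list were each counted on their brightest probeset. Alternatives were pseudocounts of 16 and 100, quantile normalization, a mean of at least 100 in the higher group, no moderation, no trend, array weights, the replicate number as a block, and leaving out each array.

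Further marker lists were also counted: 1 of 21 enterocyte markers was called higher and 5 lower, 0 and 2 of 20 exocrine pancreas markers, 0 and 2 of 23 neuron markers, 0 and 8 of 23 photoreceptor and lens markers, 1 and 1 of 19 epidermis markers and 1 and 0 of 8 ionocyte markers. Over all tested probesets the shares were 1.28% and 0.413%. The part of these cell types in the members' values was not tested.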

Additional observations from a re-analysis of the deposited data

How the results depend on the processing

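With all arrays 1 member was called. The count was 4 after quantile normalization (pgd, tktb, idh1 and mdh1ab), 5 with array weights (the same 4 genes and the dim pgam5 probeset), 0 without moderated variances (pgd adjusted p = 0.27), and 0 to 3 when 1 array was left out; without conventionalized replicate 1 or 2 or germ-free replicate 2 it was 0, and without germ-free replicate 3 it was 3 (pgd, gpia and pck1). Over all probesets, 263 were called (199 higher, 64 lower), 191 higher and 120 lower after quantile normalization, 5 without moderation, 569 with array weights, and 114 to 410 on leaving out 1 array: 137 without conventionalized replicate 1, 114 without conventionalized replicate 2, 173 without germ-free replicate 1 and 410 without germ-free replicate 3. Calls in the related gene lists numbered 6, and 0 without moderation, 8 with array weights (cebpa and slc37a4b were added) or 3 to 7 on leaving out 1 array. The change of pck1 was 0.19 to 0.44 on leaving out 1 array and was called only without germ-free replicate 3 (0.443). Counts of members whose groups did not overlap (29) were 33 after quantile normalization (41.2%, against 20.8% of all probesets) and 31 to 40 on leaving out 1 array (38.8% to 50%, against 27.1% to 32.1% of all probesets), settings chosen after seeing the data. Pools of 2 against 3 separate more often by construction, so the rise on leaving out 1 array is no result about the members.

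Correlations of deviations were -0.0841, 0.0971 and 0.0693 between same-numbered pools, and -0.164 to 0.0946 between differently numbered pools. With 3 pools per group these values cannot decide whether pools were paired. The numbers were not taken as pairs in the main fit. With the replicate block 1 member and 274 probesets were called, and hif1al was lost from the list calls (adjusted p = 0.0682). Single changes were followed across the settings only for the members chosen to be named in full and the other probesets of their genes. Whether changes of the remaining members turned sign was not examined. Among those followed, changes of some members that were not called turned sign. With all arrays the widest of these were pfkfb4b (0.16), pdhx (-0.15) and 1 pfkfb3 probeset (0.11). After quantile normalization this held for dld (-0.0229), pdhb (-0.0152), ldha (-0.00476), 1 mdh1aa probeset (-0.0699) and idh2 (-0.0576), and with array weights for dld (-0.00329), pkmyt1 (-0.000592), pdhb (-0.00173), ldha (-0.0494) and the other mdh1aa probeset (0.00507). On leaving out 1 array, changes on both sides of 0 were seen for dld (-0.00928 to 0.0648), pkmyt1 (-0.0333 to 0.0519), pfkfb4b (-0.00145 to 0.311), 1 idh3a probeset (-0.108 to 0.0652), pdhx (-0.254 to 0.00603), ldhd (-0.029 to 0.0435), the brighter pgam5 probeset (-0.00776 to 0.107), the brighter pdha1a probeset (-0.111 to 0.0115), pdhb (-0.017 to 0.164), ldha (-0.0373 to 0.116), the mdh1aa probesets (-0.0452 to 0.0795 and -0.0604 to 0.0419) and 1 pfkfb3 probeset (-0.0898 to 0.278). The cause of these turns was not tested.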
